A study of Mus musculus with 2 samples.

Results

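The Nkx2-1 locus in newborn mouse lung was described from the open-chromatin intervals that lie at or around the gene. Nkx2-1 is 1 of 21938 protein-coding genes on the chromosomes used. In the GENCODE model it lies on the minus strand of chromosome 12 (mm10, chr12:56531958-56536908, 4951 bp, ENSMUSG00000001496.15). Its members were all peaks and hotspots up to 500 bp from any transcription start site (TSS) of the gene, and those up to 200 kb from its body, a window of 404951 bp. The window held 76 of 276480 peaks in replicate 1 and 37 of 188498 in replicate 2. Of these, 4 and 3 peaks lay within 500 bp of a TSS, and at least 1 such peak was listed for 72.3% of protein-coding genes in replicate 1 and 69.2% in replicate 2.

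DNase-seq, which maps where DNase I cuts chromatin most readily, was made from lung tissue of postnatal mice at 0 days of age. All samples were of the strain labelled B6NCrl, with no genetic change or treatment named, and formed 1 group of 2 biological replicates. The labels give both replicates the same donor entry, so whether they came from separate animals is not given in the sources used here. Each peak carried a deposited score, a whole number up to 150 whose meaning is not given, and each hotspot, a broader enriched region, carried a −log10 q-value capped at 100. With 1 group there was no contrast to test, and every difference below is a description of 2 libraries. In a tissue of many cell types, more cells with an open site and more opening per cell cannot be told apart.

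Nkx2-1 encodes a homeodomain transcription factor, also called TTF-1, that marks the earliest lung and thyroid progenitors and the ventral forebrain. In lung epithelium it acts with FOXA, GATA and TEAD factors and activates the genes of the surfactant proteins. The gene is transcribed from more than one start, and it is flanked by long noncoding RNAs. Gm26973 runs from inside Nkx2-1 in the antisense direction, and Sfta3-ps, for which RefSeq lists the synonym Nanci, lies on its downstream side.

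The sequences of 6 shared sites are shown first, because the results turn on where they lie: 3 in the gene body, 1 at the upstream end of a run of replicate 1 peaks, the strongest intergenic site of the window, and the only shared site inside Sfta3-ps. Peaks of the 2 replicates that overlapped by at least 1 bp were merged into 1 shared site. The letters are the plus strand of mm10, 5′ to 3′, from RefSeq's copy of the GRCm38 assembly, whereas Nkx2-1 reads from the minus strand. Bases annotated as untranslated are left out, which shortens the first and the third entry. Capitals mark matches to the motifs listed further on.
Internal start site (chr12:56535107-56535265): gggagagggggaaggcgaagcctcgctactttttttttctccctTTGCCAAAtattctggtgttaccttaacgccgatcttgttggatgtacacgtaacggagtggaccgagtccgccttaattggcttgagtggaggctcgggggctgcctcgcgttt
First intron, start side (chr12:56535556-56535745): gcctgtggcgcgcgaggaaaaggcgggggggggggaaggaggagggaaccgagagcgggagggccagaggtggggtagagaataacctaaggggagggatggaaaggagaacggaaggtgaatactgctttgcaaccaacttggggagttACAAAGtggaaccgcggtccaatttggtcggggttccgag
First intron, upstream side (chr12:56536167-56536205): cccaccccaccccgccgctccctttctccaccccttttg
Upstream end of the run (chr12:56541256-56541405): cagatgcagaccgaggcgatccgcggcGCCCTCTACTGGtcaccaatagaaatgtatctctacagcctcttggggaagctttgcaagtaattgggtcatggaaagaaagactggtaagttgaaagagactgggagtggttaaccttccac
Intergenic site (chr12:56426856-56427025): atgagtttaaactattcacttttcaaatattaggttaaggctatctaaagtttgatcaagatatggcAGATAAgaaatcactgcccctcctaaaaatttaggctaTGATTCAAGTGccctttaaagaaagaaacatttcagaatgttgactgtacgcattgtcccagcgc
Sfta3-ps intron, both replicates (chr12:56518976-56519145): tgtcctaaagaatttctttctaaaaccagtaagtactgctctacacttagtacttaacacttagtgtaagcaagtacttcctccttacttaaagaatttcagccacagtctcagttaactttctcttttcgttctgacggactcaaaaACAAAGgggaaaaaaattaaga
The site at the internal start held 1 run in which a C/EBP and an NFI half-site match overlap. The intergenic site held an AP-1 match that overlaps an NKX2 match, and a separate GATA match. The site at the upstream end of the run held a CTCF match on the minus strand. The first intron site on the upstream side held an SP/KLF match that is not within its printed bases. A match is a description of letters and not evidence that a factor bound.

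Both replicates had open chromatin at the internal TSS of Nkx2-1, and only replicate 1 had peaks at its 5′ end. GENCODE gives 2 starts that are 1802 bp apart, the 5′ end of the gene at 56536908 and the start of the shorter transcript at 56535106. The site over the internal start, chr12:56535096-56535265, scored 98 in replicate 1 and 90 in replicate 2. A further site in the first intron, chr12:56535556-56535745 and 450 bp from that start, scored 94 and 59. These were the 2 shared promoter sites. Across all protein-coding genes, 68.5% had at least 1 shared site within 500 bp of a TSS.

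At the 5′ end, 0 sites were shared. Replicate 1 had a peak of score 62 in the 5′ untranslated exon (chr12:56536716-56536865) and a peak of score 64 on the upstream side, in an exon of Gm26973 (chr12:56537276-56537425). Replicate 2 had no peak within 500 bp of the 5′ end. Over all protein-coding genes, 63% had a shared site there. Of the genes with a shared promoter site at any start, 1222 (8.13%) had none at the 5′ end, and Nkx2-1 was among these. Replicate 2 had 1 promoter peak of its own, of score 28, in the coding exon next to the internal start (chr12:56534796-56534945).

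The third shared site of the gene body, chr12:56536016-56536205, scored 96 and 72. It lay in the first intron of the GENCODE model, 703 bp from the nearest GENCODE start. RefSeq gives 3 starts, at 56536908, 56536166 and 56535878, and the start at 56536166 falls inside this site. RefSeq lists no start at the internal GENCODE start, and the shared site there lies more than 500 bp from each RefSeq start. The 3 shared sites of the gene body lay within 1110 bp of each other, and all were in the upstream part of the gene, as the plot of peaks from Sfta3-ps to the region upstream of Nkx2-1 shows.

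**Figure D1:**
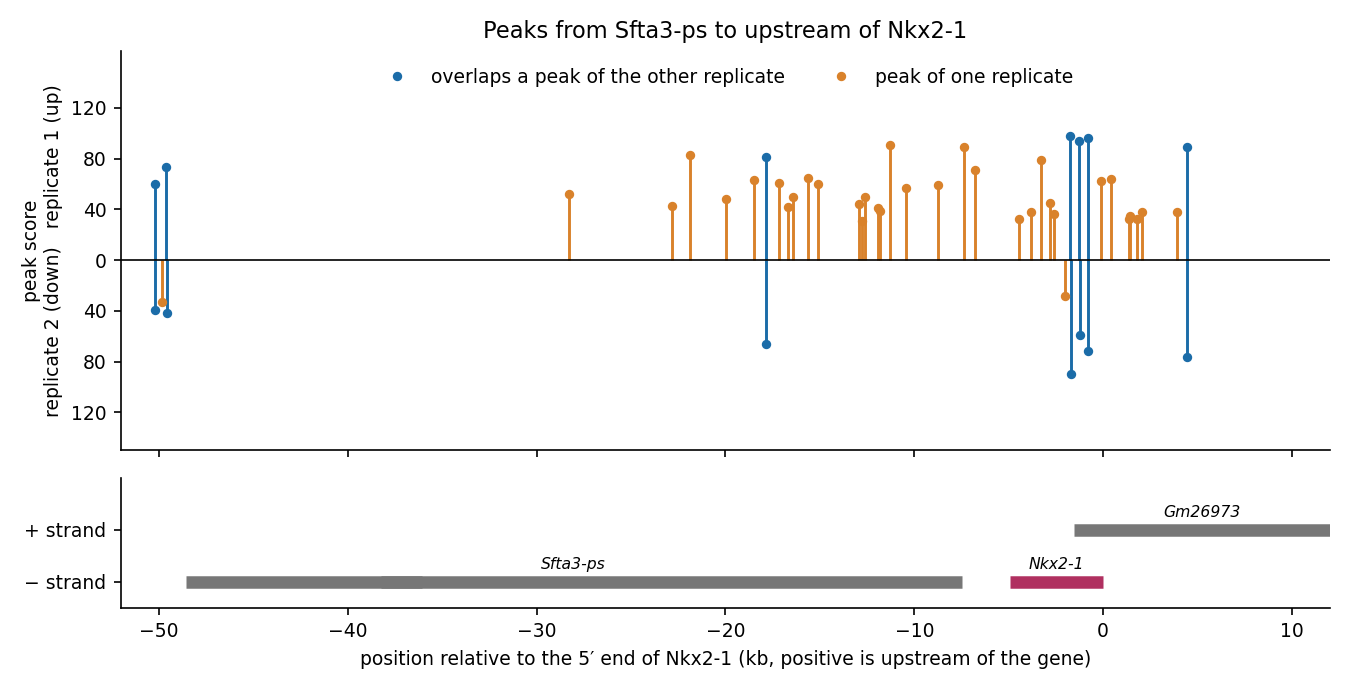
Peaks around Nkx2-1, as score (vertical axis, replicate 1 upward and replicate 2 downward) against distance from the 5′ end of the gene in kb, with positive values upstream. Blue stems overlap a peak of the other replicate, orange stems do not, and the lower panel shows gene bodies by strand. Blue stems stand at 3 places in the upstream part of Nkx2-1, with 98 and 90 the highest pair, and orange replicate 1 stems fill much of the span to the left.

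The strongest promoter peak of Nkx2-1 ranked high among all peaks and below the middle among promoters. The score of 98 stood at the 89.3rd percentile of all replicate 1 peaks, and the score of 90 at the 92.0th percentile of all replicate 2 peaks (mean 90.6 ± 1.89, SD, n = 2). Among the strongest promoter peaks of genes that had one, the same scores stood at the 30.0th percentile of 15870 genes and the 37.9th percentile of 15190 genes. The median gene of those sets scored 120 and 101. The log2 ratio of the replicate 1 to the replicate 2 score was 0.12 at the internal start, at the 9.65th percentile of all shared sites, whose median was 0.44. The ratio was 0.67 at the first intron site near it and 0.42 at the third gene body site. The scale of the score may differ between the lists, so these ratios can be read only against each other.

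Hotspots gave 2 shared promoter regions. In replicate 1, a hotspot of 786 bp covered the internal start and another of 2279 bp ran from the first intron past the 5′ end. In replicate 2, hotspots of 189 and 560 bp lay at the internal start and one of 760 bp in the first intron. All 5 stood at the cap of 100. Over the gene body, hotspots covered 79.2% of bases in replicate 1 and 30.5% in replicate 2, so the upstream end of the gene was inside a hotspot in replicate 1 only.

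Across the window of 200 kb, the replicates shared 31 sites, 22 of them more than 1000 bp from any annotated TSS. Of the 76 peaks of replicate 1, 32 (42.1%, exact binomial 95% interval 30.9 to 54.0) overlapped a replicate 2 peak, against 59.5% of the whole list. Of the 37 peaks of replicate 2, 31 (83.8%, 68.0 to 93.8) overlapped a replicate 1 peak, against 87.6% of the whole list. These intervals cover counting error only, and neighbouring peaks are not independent. The window thus held few peaks of replicate 2 alone and many of replicate 1 alone.

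**Figure D2:**
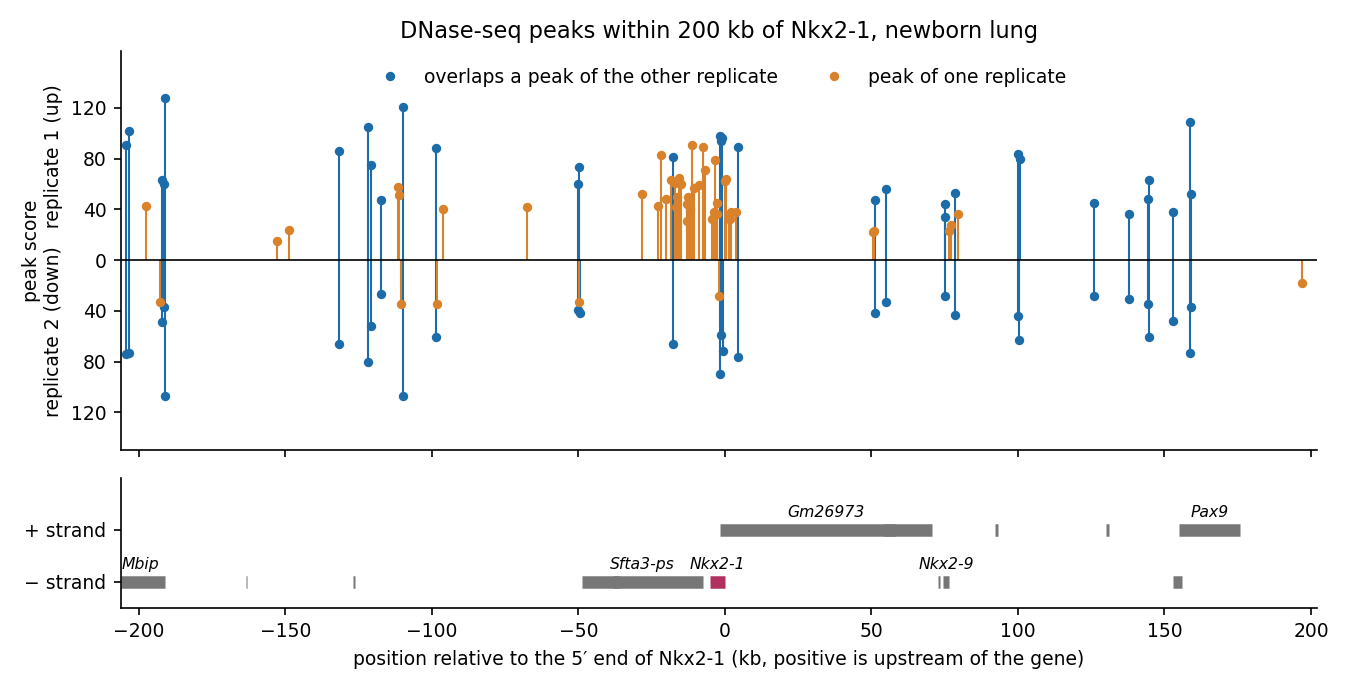
Peaks of both replicates within 200 kb of Nkx2-1, as score (vertical axis, replicate 1 upward and replicate 2 downward) against distance from the 5′ end in kb, with positive values upstream. Blue stems overlap a peak of the other replicate and orange stems do not. The orange replicate 1 stems gather in and next to Sfta3-ps and Nkx2-1, and the outer parts of the window are mostly blue.

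The peaks of replicate 1 alone were concentrated on Sfta3-ps and Nkx2-1. In the body of Sfta3-ps (chr12:56488321-56529427), 1 of 19 replicate 1 peaks was shared, and replicate 2 had 1 peak in all. In the gap between the genes, 0 of 2 were shared, and in the Nkx2-1 body 3 of 9. On the far side of Sfta3-ps, towards Mbip, 13 of 20 were shared. Between Nkx2-1 and Nkx2-9 the count was 3 of 11, and from Nkx2-9 towards Pax9 12 of 15. From Sfta3-ps to the 5′ end of Nkx2-1, 48.6 kb in all, 4 of 30 replicate 1 peaks were shared (13.3%, 3.76 to 30.7), against 28 of 46 in the rest of the window (60.9%, 45.4 to 74.9). This division of the window was chosen after its values were seen.

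The difference was also present within classes of score. Of the replicate 1 peaks with scores of 60 to 79, 86.0% of the whole list were shared, 6 of 7 in the rest of the window, and 0 of 7 from Sfta3-ps to the 5′ end of Nkx2-1. At scores of 80 and above, the whole list reached 97.7% and the rest of the window 11 of 11. The stretch reached 4 of 7, and the shared peaks were the 3 of the gene body and the Sfta3-ps intron site printed above, which scored 81 and 66. At scores of 40 to 59, the counts were 53.2% of the whole list, 8 of 13 and 0 of 11.

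**Figure D3:**
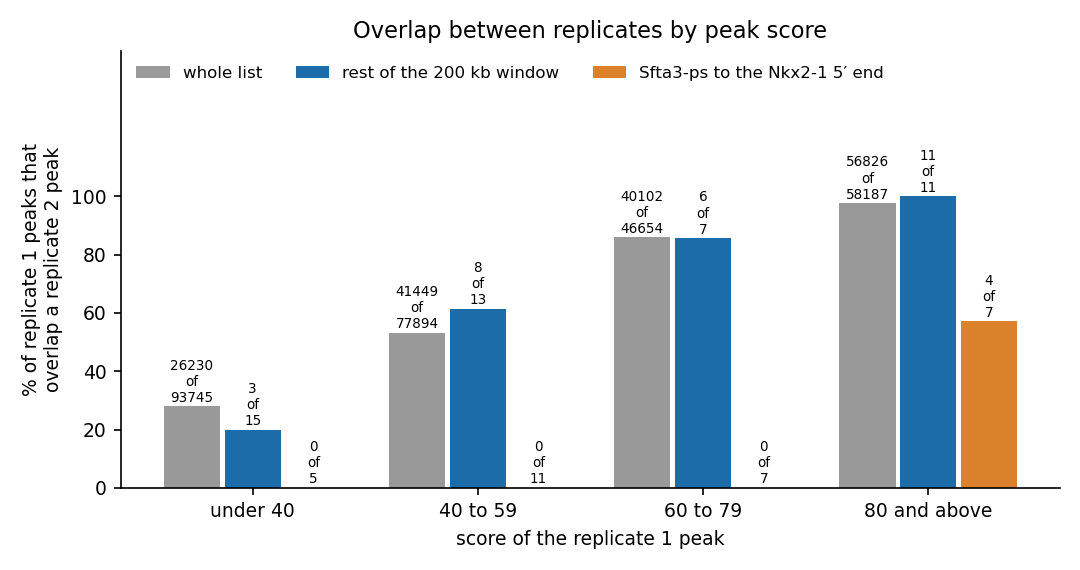
Percent of replicate 1 peaks that overlap a replicate 2 peak (vertical axis) in 4 classes of replicate 1 score (horizontal axis), for the whole list, the stretch from Sfta3-ps to the 5′ end of Nkx2-1, and the rest of the 200 kb window. Labels above the bars give the counts. The rest of the window follows the whole list, and the stretch has shared peaks only in the highest class, 4 of 7.

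The strongest peaks of replicate 1 alone in the stretch, picked out after their values were seen, scored 91 in an intron of Sfta3-ps (chr12:56525556-56525705), 89 just before the Sfta3-ps start (chr12:56529456-56529605) and 83 in another Sfta3-ps intron (chr12:56514956-56515105). The first of these sequences, the site before the Sfta3-ps start, and the replicate 1 site upstream of the 5′ end of Nkx2-1 are shown for comparison with the shared sites above, on the same strand and with the same meaning of capitals.
Sfta3-ps intron, replicate 1 (chr12:56525556-56525705): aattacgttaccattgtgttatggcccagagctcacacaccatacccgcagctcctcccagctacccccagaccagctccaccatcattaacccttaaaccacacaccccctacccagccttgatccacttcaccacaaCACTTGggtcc
Before the Sfta3-ps start, replicate 1 (chr12:56529456-56529605): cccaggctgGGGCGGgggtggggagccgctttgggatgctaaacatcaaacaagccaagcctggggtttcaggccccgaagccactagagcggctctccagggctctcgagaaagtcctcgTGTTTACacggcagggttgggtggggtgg
5′ end of Nkx2-1, replicate 1 (chr12:56537276-56537425): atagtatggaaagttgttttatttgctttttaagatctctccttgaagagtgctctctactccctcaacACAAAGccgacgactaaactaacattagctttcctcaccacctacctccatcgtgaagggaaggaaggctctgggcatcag
The Sfta3-ps intron site ended in an NKX2 match on the minus strand, and the site before the Sfta3-ps start held a forkhead and an SP/KLF match. Of the 26 replicate 1 peaks of the stretch with no replicate 2 peak, 0 overlapped a replicate 2 hotspot. In the whole list 5.23% of such peaks did, so 0 of 26 is near the share of all such peaks and not particular to the stretch.

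The replicate 1 peaks without a partner stood in unbroken runs. From chr12:56519656-56519805 to chr12:56534256-56534405, 20 consecutive replicate 1 peaks over 14750 bp had no replicate 2 peak, with a median score of 50 and a highest of 91. In the whole list, 10 of 60643 such runs held at least 20 peaks, and 2 of these spanned no more than 14750 bp. Both counts include this run. A second run, of 7 peaks over 4190 bp, began at the 5′ end of Nkx2-1 and had a highest score of 64. The third, in Sfta3-ps, held 5 peaks over 9970 bp with a highest score of 83. The shared sites of the gene body lay between the first and the second run.

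The second run ended at the shared site 4.42 kb upstream of the 5′ end (chr12:56541256-56541405, scores 89 and 76), an exon of Gm26973 with the CTCF match shown above. CTCF is a zinc-finger protein that binds insulators, and whether it bound at this site was not tested. Beyond this site, neither replicate had a peak for 46.1 kb, the longest such gap of the window. The other CTCF match of the window was in a shared intergenic site at −132 kb (chr12:56404996-56405145, scores 86 and 66).

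Hotspots showed the same division, but they come from the same alignments as the peaks and are not separate evidence. Within 200 kb, replicate 1 had 65 hotspots, of which 27 overlapped one of replicate 2, 41.5% against 59.3% of the whole list. Replicate 2 had 34, of which 31 overlapped one of replicate 1, 91.2% against 91.4%. They merged into 27 shared hotspots. In the Sfta3-ps body, replicate 1 had 18 hotspots over 10.9% of the bases, and replicate 2 had 1 hotspot of 77 bp. On the side towards Mbip, the coverage was close, at 3.91% and 3.53% of bases.

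Set beside other genes, the neighbourhood of Nkx2-1 stood near the low end of overlap between the replicates. Within 50 kb of the gene, replicate 1 had 39 peaks and replicate 2 had 9. The replicate 1 count stood at the 82.7th percentile of protein-coding genes, whose median was 23, and the replicate 2 count at the 26.0th percentile, with a median of 17. Of the 39 peaks, 7 were shared (17.9%). Among the 13049 genes with at least 20 replicate 1 peaks within 50 kb, the median share was 63.0%, the central 95% ran from 40.6% to 84.8%, and 8 genes had a lower share than Nkx2-1. Windows of neighbouring genes overlap, so these genes are not independent.

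**Figure D4:**
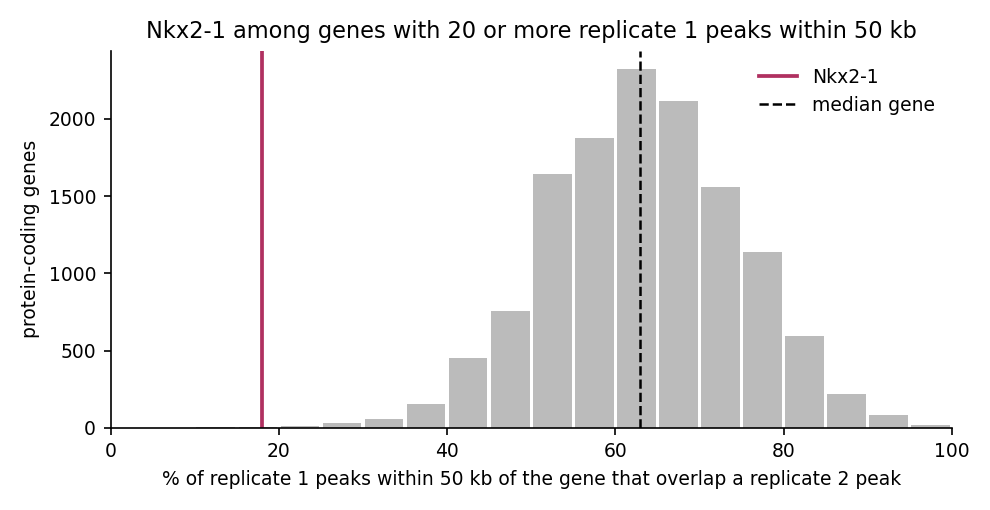
Number of protein-coding genes (vertical axis) by the percent of replicate 1 peaks within 50 kb that overlap a replicate 2 peak (horizontal axis, in steps of 5), among 13049 genes with at least 20 such peaks. The solid line marks Nkx2-1 at 17.9% and the dashed line the median gene at 63.0%.

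Among the 8 genes below Nkx2-1, named here after their values were seen, were Zfp978 (0 of 46 peaks shared), Cyp3a16 (1 of 21), Sfmbt2 (2 of 22), Adamts18 (12 of 98), 4930572O03Rik (3 of 22), Vmn1r3 (3 of 21) and Mab21l1 (4 of 25). With wider windows the share at Nkx2-1 came closer to that of other genes. It was 25% within 100 kb, where 18 of 17132 genes were lower, and 42.1% within 200 kb, where 214 of 18861 were lower. The number of shared sites within 200 kb, 31, stood at the 31.4th percentile of protein-coding genes, whose median was 45.

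The labels list 2 sequencing instruments for replicate 1 and name none for replicate 2, and the depth of neither library is given in the sources used here. Replicate 1 had more peaks than replicate 2 over the genome as a whole. The part of these in the difference at Nkx2-1 was not tested. The peaks of replicate 1 alone in the stretch had a median GC content of 51.3% and a median of 3 CpG dinucleotides, against 48% and 2 over all such peaks. The shared sites within 200 kb were close to the stretch, with medians of 50% and 3.

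Outside the promoter, the 10 strongest shared sites of the window included the third gene body site described above, and the highest scores lay at other genes or between genes. The site over the Mbip start (chr12:56345816-56345965) scored 128 and 107, and that in the Pax9 untranslated region (chr12:56695496-56695645) scored 109 and 73. Mbip encodes a protein that binds a MAP kinase kinase kinase, and Pax9 a paired-box factor of pharyngeal pouches and teeth. The strongest intergenic site lay at −110 kb, on the downstream side (chr12:56426856-56427025), and scored 121 and 107, above the Nkx2-1 promoter in both replicates. A second intergenic site at −122 kb (chr12:56414896-56415105) scored 105 and 80. In Mbip introns, sites at −203 kb and −204 kb scored 102 and 73, and 91 and 74. No gene can be assigned to these sites from peaks alone.

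Of the genes with a start within 200 kb, Mbip, Pax9 and Gm26973 had shared promoter sites besides Nkx2-1. Mbip had 2, the site given above and a weaker one of scores 60 and 37. Pax9 also had 2, the site given above and a weaker one of scores 52 and 37. The 2 of Gm26973 were the same sites as those of Nkx2-1, since a start of this antisense RNA lies beside the internal start, and peaks cannot be divided by strand. Sfta3-ps had 1 promoter peak, of score 89, in replicate 1 only. Nkx2-9, the nearest relative on the chromosome, had 1 of score 23 in replicate 1 only. No promoter peak of either replicate was listed for Cox6c2, Gm18027, Gm47720, Gm25760, C87198, Gm38103, Gm48835, Gm18339 or Gm15524.

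By score, Nkx2-1 had the strongest promoter peak of its family in both replicates. Of 7 NK2 genes, 2 had a shared promoter site, Nkx2-1 and Nkx2-4 (scores 42 and 39). In replicate 1 only, promoter peaks were listed for Nkx2-2, a factor of the ventral neural tube and pancreas (66), the cardiac factor Nkx2-5 (35), Nkx2-6 (33) and Nkx2-9 (23). Nkx2-3, a factor of gut and spleen mesenchyme, had none. The share of family members, 2 of 7, was below the 68.5% of all protein-coding genes.

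**Figure D5:**
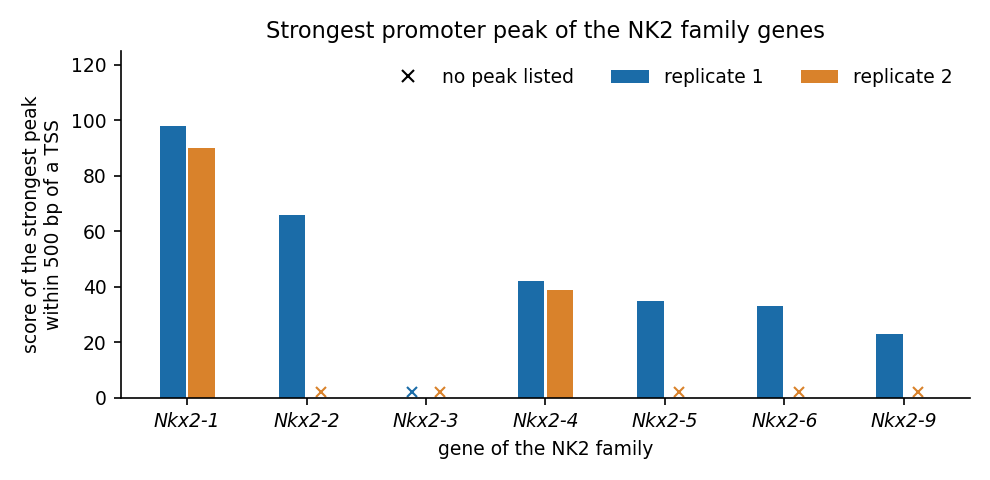
Score of the strongest peak within 500 bp of a TSS (vertical axis) for the 7 NK2 family genes in replicate 1 (blue) and replicate 2 (orange), where a cross marks no listed peak. Nkx2-1 has the highest bar in both replicates, 98 and 90, and 4 genes have a bar in replicate 1 only.

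Most genes that act with NKX2-1 in lung epithelium had shared promoter sites. All 14 partner genes had one, against 68.5% of all protein-coding genes, the strongest by rank being Etv5, an ETS factor that acts downstream of FGF signalling (145 and 132), and Wwtr1, which encodes the TEAD coactivator TAZ (141 and 120). Of 14 lung target genes, 12 had one, led by Abca3, the lipid transporter of lamellar bodies (116 and 110), and Napsa, a protease that processes surfactant protein B (107 and 97). The other two were Pdpn, a type 1 cell gene (71), and Scgb1a1, the club cell secretoglobin (48), each with replicate 1 peaks only. The scores of Etv5, Wwtr1, Abca3 and Napsa, the leaders of their lists, were above those of Nkx2-1 in both replicates.

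The windows of both lists had median shares of overlap near the 63.0% of all 13049 genes counted above, and larger than the share at Nkx2-1. Of the partner genes, 11 had at least 20 replicate 1 peaks within 50 kb, and their shares ran from 44.4% to 82% with a median of 60.7%. For 11 target genes the range was 40.7% to 85% with a median of 65.5%. The Nkx2-1 share of 17.9% was below each of these, but only 8 of the 13049 genes were lower, so this is not particular to these lists. Sox2, named after its values were seen, had 18 replicate 1 peaks, too few for that count, with 6 shared (33.3%).

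Outside the lung, NKX2-1 acts in thyroid and ventral forebrain, and some genes of these lists had shared promoter sites. Of 8 thyroid genes, 5 had one, near the 68.5% of all protein-coding genes, the highest ranked being Tshr, the thyrotropin receptor (136 and 123), and Hhex, a homeobox factor of foregut (116 and 95). Pax8 and Slc5a5 had no promoter peak. Of 9 ventral forebrain genes, 6 had one, also near that share, led by Dlx1 (110 and 93) and Sox6 (105 and 96). Dlx2 and Gsx2 had no promoter peak, and Dlx5 had one of 56 in replicate 1 only.

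The labelled tissue was checked against cell type markers, beside the 68.5% of all protein-coding genes with a shared promoter site. Shared promoter sites were found for 8 of 9 lung epithelial, 3 of 3 endothelial, 3 of 3 mesenchymal and 2 of 2 smooth muscle markers. For blood the count was 1 of 3, for oesophagus and tracheal cartilage 1 of 4, for thyroid 3 of 5 and for ventral forebrain 2 of 3. With so few markers per type, and counts for thyroid and forebrain near the share of all genes, these counts alone do not separate tissues. Of the thyroid markers, Tshr scored 136 and 123, Pax8 had no promoter peak, and Tg and Foxe1 scored 42 and 35, and 47 and 35. Lhx6 scored 67 and 44, Lhx8 scored 62 and 39, and Gsx2 had no promoter peak. Tg, Foxe1, Lhx6 and Lhx8 were named after their values were seen. Whether cells of these other tissues contributed to the Nkx2-1 peaks was not tested.

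The pattern of Nkx2-1 was set against 15032 genes with a shared promoter site, over 4 percentile ranks (strongest promoter score in each replicate, number of shared promoter sites, number of shared distal sites within 200 kb). The nearest were 9230104L09Rik (99 and 92, distance 1.90), Eme1 and Mrpl27 (97 and 91 each, 2.42), Supt7l (95 and 92, 2.62) and Arhgef4 (101 and 91, 2.99), where a distance is in percentile points. Eme1 and Mrpl27 had the same values in all 4 measures.

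Motif matches in the 31 shared sites of the window came close to the share in all shared sites or rested on few sites. In the 150 bp around each centre, on both strands, the NKX2 motif CAAGTG was found in 3 of 31, against 11.4% of all 161051 shared sites. The SOX motif ACAAAG was found in 5 (11.5%), the AP-1 motif TGANTCA in 4 (9.06%), the SP/KLF motif GGGCGG in 3 (12.6%) and the E-box CAGCTG in 3 (13.7%). The count was 2 for the TEAD motif GGAATG (11.7%), the GATA motif AGATAA (6.25%), the NFI half-site TTGGCA (12.8%) and CTCF (3.86%). It was 1 for the forkhead motif TGTTTAC (3.77%), the ETS motif CCGGAAG (2.71%), the C/EBP motif TTGCNNAA (10.7%) and the TCF/LEF motif ATCAAAG (1.78%). The NKX2 matches were in the intergenic site at −110 kb, in an Mbip intron and in the Pax9 site, and none of the 3 shared sites in the Nkx2-1 body held these letters.

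In the 26 replicate 1 peaks of the stretch without a partner, the SP/KLF motif was found in 5, against 5.41% of all such peaks, and the AP-1 motif also in 5, against 9.27%. The NKX2 motif was in 4 (11.4%) and the E-box in 4 (13.2%). Matches to ETS (1.29%), forkhead (3.75%) and GATA (7.31%) were in 2 each, and to SOX (12.5%) and C/EBP (10.3%) in 1 each. TEAD, NFI half-site, CTCF and TCF/LEF matches were in 0 (11.7%, 13.7%, 0.423% and 2.04%). These are counts over neighbouring peaks of 1 library.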

How the data were processed

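DNase-seq intervals of 2 libraries were used, numbered as the labels number the replicates. The authors derived peaks and hotspots from each library's own filtered alignments to mm10, per the deposited notes. The aligner, the caller, their thresholds and the depth are not given in the sources used here. Each deposited peak carried a score given by the authors, from 2 to 150 in replicate 1 and 1 to 148 in replicate 2, whose meaning is not given. Deposited hotspots had a −log10 q-value of at least 1.30, as their file format defines that column.

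The autosomes, X and Y were kept, without 26 and 23 duplicate peaks. GENCODE M21 and RefSeq on GRCm38, the assembly that mm10 denotes, gave genes, and 0 intervals ended past a chromosome end. A peak was at a TSS if any part of it lay within 500 bp. Overlap by at least 1 bp counted as shared, and percentiles were taken within each list. Exact binomial (Clopper-Pearson) intervals are at 95%. No test between groups was possible.

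The members and gene lists were chosen with earlier results of these data known. Named genes were Nkx2-1, genes with a TSS within 200 kb, the NK2 family, 2 leading and up to 3 closed members of each other list, and the 5 nearest in pattern. Some genes that these choices cover are not reported here. Named sites were the shared promoter sites and the 10 strongest others. The overlap and window counts were exact in 20 of 20 simulated runs of 2000 sites. In these runs all intervals had equal width. Sites built from several overlapping peaks of a library, and hotspots of varied width, were not covered. Alternatives varied overlap, score, TSS choice, promoter width, window, hotspots, gene model and replicate. Python 3.11.15 was used with pandas 2.3.3, numpy 2.4.6, scipy 1.17.1, pysam 0.24.0 and matplotlib 3.10.9.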

Additional observations from a re-analysis of the deposited data

How the results depend on the processing

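The count of shared promoter sites, 2, fell to 0 at the 5′ end alone. It was 2 or 3 with a reciprocal overlap of 50%, peaks at or above the median score, hotspots, RefSeq starts or 1000 bp. With RefSeq starts the 2 were the first intron sites, and the site over the internal start, which holds the strongest promoter peak, was not among them. Taking each replicate alone gave 3 to 4 promoter peaks. The 31 shared sites within 200 kb became 19 with peaks at or above the median score, 12 within 100 kb and 7 within 50 kb, and each replicate alone gave 37 to 76 peaks. The mean percentile of the strongest promoter peak, 90.6, was 34.0 among promoters and 81.1 by hotspot value, and 89.3 to 92.0 in each replicate alone. The hotspot value says nothing of rank, since the promoter hotspots stood at the cap of 100 with 39.5% and 36.2% of all hotspots. The percentile of the number of shared sites, 31.4, was 24.7 within 50 kb and 23.0 within 100 kb. It was 36.8 with peaks at or above the median score and 35.1 for distal sites. Counting all peaks of each replicate alone gave 31.7 to 50.7. The 27 shared hotspots became 12 at a −log10 q-value of at least 10, and each replicate alone gave 34 to 65. The NK2 family count of 2 became 1 at 5′ ends and 2 to 6 for each replicate alone. The NKX2 motif count of 3 in 31 shared sites became 4 in 37 replicate 2 peaks and 10 in 76 replicate 1 peaks. As shares these were 9.68%, 10.8% and 13.2%, against 11.4%, 11.2% and 11.4% over the whole lists. No paired analysis was possible because there is only 1 group. Precision is limited by 2 libraries of unknown depth.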
